A study of Mus musculus with 10 samples.

Results

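The TREM2 axis of microglia and the genes that mark disease-associated microglia (DAM) were followed in brain microglia of mice given GW2580. The set holds 9 genes of the 46152 in the counts: Trem2, Tyrobp, Apoe, Lpl, Itgax, Spp1, Clec7a, Cst7 and Gpnmb. They were chosen by symbol, matched to NCBI gene identifiers in the RefSeq table, and all 9 had at least 1 count in at least 1 library. GW2580 is an inhibitor of the kinase of CSF1R, the receptor through which microglia receive survival signals. C57BL/6J mice of both sexes, 8-12 weeks old, were gavaged for 8 days with GW2580 at 80 mg/kg/d, or with its vehicle of 0.1% Tween 80 and 0.5% hydroxymethyl propyl-cellulose, and otherwise carried no allele or treatment named in the labels. Brain cells were separated on Percoll and selected with antibodies to CD11b, which other myeloid cells also carry, and 1 RNA-seq library was made from each sample. There were 5 libraries per group, 2 from male mice (replicates 1 and 2) and 3 from female mice (replicates 3 to 5).

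TREM2 is a surface receptor for lipids and lipoproteins, and it signals through TYROBP (DAP12), an adaptor whose phosphorylated motif recruits the kinase SYK. In models of amyloid disease, microglia near plaques lower their homeostatic genes and raise genes of lipid handling, lysosomes and adhesion. Among the raised genes are Apoe, Lpl, Itgax, Spp1, Clec7a, Cst7 and Gpnmb, and part of this rise, but not all of it, needs Trem2. The mice studied here were healthy, so the members were measured outside the setting in which the DAM state was described.

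The libraries held between 12550418 and 26079343 fragments assigned to genes. Genes of homeostatic microglia were abundant, with Tmem119 at 3473 ± 673 CPM in vehicle libraries (SD, n = 5), CPM being counts per 1e06 assigned fragments scaled by trimmed mean of M values (TMM). Markers of other cell types were also present: the monocyte and granulocyte list (10 of 10 genes tested, none at 0) summed to 526–27558 CPM with vehicle and 646–11921 with GW2580, the ependymal and choroid plexus list (7 of 8 tested, none at 0) to 1212–27247 and 166–3533, the oligodendrocyte list (9 of 10, none at 0) to 164–17936 and 181–1784, and the astrocyte list (10 of 10, none at 0) to 212–3189 and 212–723. Of the remaining lists, neurons summed to 60.5–618 and 56.3–185 CPM, endothelial and mural cells to 72.7–181 and 75.8–105, border macrophages to 95.3–121 and 59.5–291, dendritic cells to 50.5–96.5 and 66.0–136, and NK and T cells to 47.7–290.1 and 19.9–67.1. In bulk RNA, fewer cells of a type and less RNA per cell cannot be told apart.

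On the first principal component (47.05% of the variance of 7580 genes), both libraries numbered 5 scored apart from the rest of their group. Each lay toward the libraries of the other treatment and farther out than any of them. Vehicle 5 scored −77.9 while the other vehicle libraries scored 35.0 to 40.5, and GW2580 5 scored 45.8 while the other GW2580 libraries scored −46.4 to 5.20. The fold change of each measured member and the calls in each related list are therefore given with all 10 libraries and with 8. The tests by sex, the likeness between genes and many fold changes of other named genes are given with all 10 only. Left out of the 8 were Vehicle 5 and GW2580 5, chosen for lying apart from their own group on this component. Leaving them out draws the groups apart across all genes and makes the p-values of the 8 libraries too small.

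Trem2 could not be measured with these counts. Its count was 0 in all 5 vehicle libraries and in GW2580 1, 2 and 5, and 1 in GW2580 3 and in GW2580 4, in all 2 of 166388429 assigned fragments. A floor of 3 counts, which covers counting error only, corresponds to 0.142–0.251 CPM per library. The gene fell below the filter of 1 CPM in at least 3 libraries, and no fold change is given.

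In the annotation, the exons of Trem2 (NCBI gene 83433) lie on chr17:48346401-48352276 of GRCm38, plus strand, and again on a second sequence outside the assembled chromosomes. The 6 distinct exons there have the same structure, shifted by 1 constant offset. The exon length in the deposited counts was 2292 bases against 1146 on the chromosome, so both copies were counted as 1 gene. Fragments that aligned to more than 1 place were not counted. Of the 1855 genes with exons on a chromosome and on another sequence, 705 (38.0%) were at 0 in every library, against 1352 of 44285 genes (3.05%) with exons on 1 sequence. For protein-coding genes the figures were 288 of 1116 (25.8%) and 371 of 20751 (1.79%).

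The neighbours of Trem2 shared this. All 5 other genes of the TREM cluster had exons on 2 sequences, with Treml1 and Treml2 at 0 in every library, and Trem1, a receptor of neutrophils and monocytes, at 0 to 24 counts, with the 24 in Vehicle 1. Exons on 2 sequences did not always go with few counts. The homeostatic genes Olfml3 and Slc2a5 also had them, at means of 808 and 58.9 CPM over the 10 libraries. Whether the second copy accounts for the counts of Trem2 was not tested, and they say nothing of the receptor's level or of its response to GW2580.

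Short stretches of RefSeq sequence (GRCm38.p6) before the annotated starts are shown for the members whose 250 bases before a start hold GAGGAA on either strand (TTCCTC on the other), a core of sites of the myeloid factor PU.1. The capitals mark those letters, and each stretch is read 5′ to 3′ along the strand of the gene. For Apoe, first and last give the order in which its starts were listed, which need not be their order along the gene. Promoters were held for 7 of the 9 members, not for Tyrobp or Lpl. The Trem2 stretch, from chr17:48346349-48346378 on the plus strand, has the letters beginning 40 bases before the start, those of Apoe, from chr7:19699409-19699438 and chr7:19698513-19698542 on the minus strand, 250 and 132 bases before 2 of its 3 starts, that of Spp1, from chr5:104434986-104435015 on the plus strand, 113 bases before 1 of its 2 starts, and that of Clec7a, from chr6:129472858-129472887 on the minus strand, 96 and 90 bases before its 2 starts.
Trem2: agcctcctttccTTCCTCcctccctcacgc
Apoe, first start: GAGGAAtcaacaacgagggatcccagaaca
Apoe, last start: gccgggaagaaaGAGGAAtgtaagctggac
Spp1: acaaaaccagagGAGGAAgtgtaggagcag
Clec7a: aaacaggatctaGAGGAAaaaagggaaatt
The letters were in 7639 of all 32851 promoters of the same length (23.3%), and those of Itgax, Cst7 and Gpnmb did not hold them. CACGTG, the E-box of MITF and TFEB factors, was in 6.02% of all promoters and in none of the members' windows. A match is a description of letters and not of a bound site.

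The other 8 members passed the filter, as did 28419 genes in all. Per kilobase of exon, the adaptor and the apolipoprotein stood far above the rest in vehicle libraries: Tyrobp at 3885 ± 2184 and Apoe at 1644 ± 617 CPM per kb (SD, n = 5) and, in their lowest libraries, above 99.5% and 99.7% of genes tested. Then came Cst7 at 26.5 ± 10.5, Spp1 at 18.4 ± 7.82, Clec7a at 13.04 ± 8.66, Lpl at 9.22 ± 4.15, Itgax at 2.27 ± 1.73 and Gpnmb at 2.09 ± 0.561 CPM per kb. Between neighbours in this order, the vehicle libraries separated only Apoe from Cst7, and the ranges of all other neighbours overlapped. In all 10 libraries Apoe was above Cst7 per kb, while Tyrobp was above Apoe in 7 and Itgax above Gpnmb in 4. Together the members took between 0.224% of assigned fragments (GW2580 1) and 0.999% (Vehicle 2), nearly all of it Tyrobp and Apoe.

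A gene was called when its fold change exceeded 2 at a p below 0.05, the thresholds of the study's methods, with the p taken here as unadjusted. By this rule 1 of the 8 members was called, Cst7, lower with GW2580. Among all genes tested 10.7% were called, 6.7% lower and 4.01% higher, so a count of 1 is near the background. At an adjusted p under 0.05, edgeR's quasi-likelihood test called 0 members and 0 of the 28419 genes, of which 4186 (14.7%) had an unadjusted p under 0.05. By the same limit limma-voom called 0 genes and DESeq2 177 (0.623%), none of them a member. The groups overlapped for each of the 8 members, and did not overlap for 3.03% of all genes. The values of each member follow, in CPM for vehicle 1 to 5 and then GW2580 1 to 5.

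**Figure D1:**
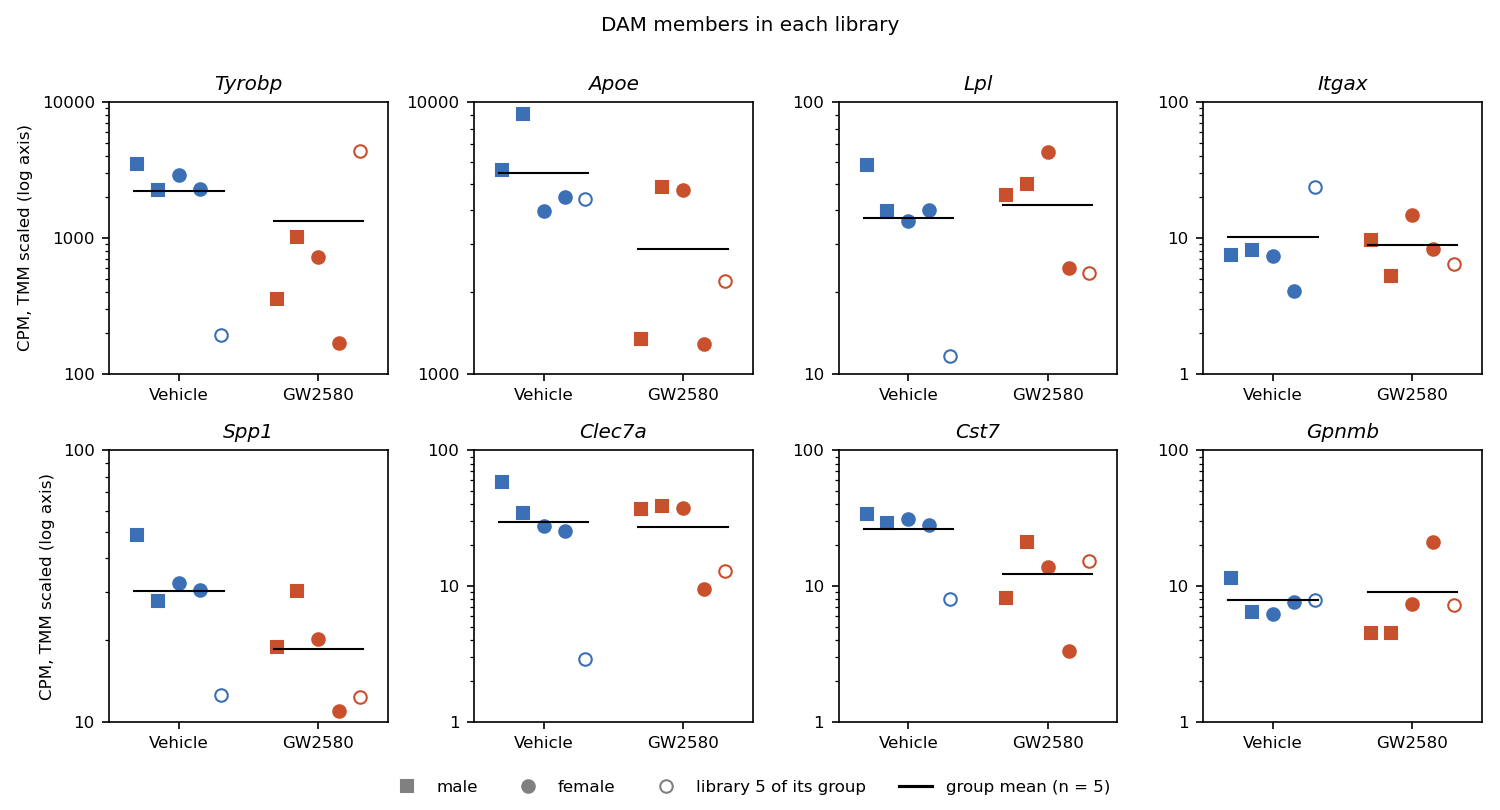
Level of each of the 8 measured members in every library, in TMM-scaled CPM on a log axis, with vehicle in blue, GW2580 in orange, squares for male and circles for female mice, open circles for the female library 5 of each group, and a line at the mean of 5. Vehicle 5 is the lowest vehicle library for Tyrobp (193 CPM), Lpl, Spp1, Clec7a and Cst7 (7.98 CPM) and the highest for Itgax (23.6 CPM), and GW2580 5 is the highest GW2580 library for Tyrobp (4387 CPM).

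Tyrobp, the adaptor through which TREM2 and several other receptors of myeloid cells signal (chr7:30413782-30417582, plus strand), was the member that varied most. Its level was 3525, 2243, 2923, 2286 and 193 CPM in the vehicle libraries. With GW2580 it was 354, 1024, 728, 169 and 4387 CPM. The highest and the second lowest library thus carried labels opposite to the rest of their groups, and the spread from lowest to highest was 25.9-fold. With all 10 libraries the log2 fold change was −0.75 (SE 0.83, edgeR's quasi-likelihood test, p = 0.382, Benjamini-Hochberg adjusted p = 0.683), smaller than its error, and the two-sided exact permutation test gave p = 0.325.

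Without Vehicle 5 and GW2580 5, Tyrobp was at 2243 to 3525 CPM with vehicle and 169 to 1024 with GW2580, with no overlap. The log2 fold change was −2.37 (SE 0.58, edgeR's quasi-likelihood test, adjusted p = 0.0164), a level 5.15-fold lower, and the exact permutation p of 0.0286 is the smallest that 4 against 4 allows. Tyrobp was itself among the genes of the component by which Vehicle 5 and GW2580 5 were chosen. The lack of overlap and these p-values are therefore not independent support for a change. Without GW2580 5 alone the log2 fold change was −2.07 (edgeR's quasi-likelihood test, unadjusted p = 0.0167), which meets the fold and unadjusted p rule. Without Vehicle 5 alone it was −1.04 (same test, unadjusted p = 0.179), which does not. With Vehicle 5 kept, its 193 CPM lies among the other GW2580 libraries at 169 to 1024, so the groups overlap. In Vehicle 5, where Tyrobp was at 193 CPM, the 18 homeostatic genes summed to 26690 CPM against 80654–104308 in the other vehicle libraries, and the ependymal and choroid plexus list to 27247 against 1212–2970. In GW2580 4, where Tyrobp was at 169 CPM, the homeostatic genes summed to 31586 CPM and the ependymal and choroid plexus list to 166. In GW2580 3, where Tyrobp was at 728 CPM, the homeostatic sum was the highest of all libraries, at 110053. The part of these sums in the level of Tyrobp was not tested.

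Apoe encodes the main lipoprotein of brain lipid transport, a ligand of TREM2 that astrocytes also make in quantity (chr7:19696244-19701310, minus strand). Its level was 5648, 9031, 3990, 4458 and 4394 CPM with vehicle. In the GW2580 libraries it was 1348, 4856, 4753, 1283 and 2199 CPM. GW2580 1, 4 and 5 lay below every vehicle library, while GW2580 2 and 3 lay among them. GW2580 libraries differed from vehicle by −0.93 on the log2 scale (SE 0.52, edgeR's quasi-likelihood test, p = 0.0931, adjusted p = 0.404, exact permutation p = 0.0873), and by −1.02 with 8 libraries (SE 0.63, adjusted p = 0.261, exact permutation p = 0.143). With limma-voom the difference was −1.09, at an unadjusted p under 0.05, so that Apoe was called there together with Cst7 (adjusted p = 0.316), and with DESeq2 it was −0.97, under a fold of 2 (adjusted p = 0.247). The highest level, in Vehicle 2, came with an astrocyte sum of 3189 CPM and an oligodendrocyte sum of 17936 CPM, the highest of all libraries for both lists. Vehicle 5 had an astrocyte sum of 2077 CPM and the others 212 to 723, and the share of Apoe from such cells was not tested.

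Lpl, a lipase that frees fatty acids from lipoproteins (chr8:68880555-68906932, plus strand), was at 58.6, 39.8, 36.4, 40.1 and 11.6 CPM with vehicle. The GW2580 libraries were at 45.7, 50.1, 65.5, 24.4 and 23.5 CPM. The groups overlapped widely, with Vehicle 5 lowest of all and GW2580 3 highest. Its log2 fold change was 0.17 (SE 0.42, edgeR's quasi-likelihood test, adjusted p = 0.873, exact permutation p = 0.698), and −0.014 with 8 libraries (SE 0.31, exact permutation p = 0.886).

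Itgax, the CD11c chain of an integrin that dendritic cells also carry (chr7:128129526-128150657, plus strand), was low, at 7.43, 8.12, 7.35, 4.08 and 23.6 CPM with vehicle. Under GW2580 it was at 9.71, 5.27, 14.8, 8.24 and 6.43 CPM. Vehicle 5 was the highest of all, in contrast to its place for Tyrobp, Lpl and Clec7a, and GW2580 3 was next. A log2 fold change of −0.19 (SE 0.45, edgeR's quasi-likelihood test, adjusted p = 0.865, exact permutation p = 0.976) changed sign to 0.39 with 8 libraries (SE 0.34, exact permutation p = 0.343).

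Spp1 encodes osteopontin, a secreted ligand of integrins (chr5:104435111-104441053, plus strand). Its level was 48.9, 27.8, 32.5, 30.5 and 12.5 CPM with vehicle. Levels with GW2580 were 18.8, 30.3, 20.2, 10.9 and 12.4 CPM. GW2580 2 lay among the vehicle libraries and Vehicle 5 among the GW2580 libraries. On the log2 scale the difference was −0.72 (SE 0.38, p = 0.0840 and adjusted p = 0.392 by edgeR's quasi-likelihood test, exact permutation p = 0.119). With 8 libraries it was −0.89, under a fold of 2 (SE 0.32, adjusted p = 0.0656, exact permutation p = 0.0571).

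Clec7a, the lectin receptor dectin-1 for fungal glucans (chr6:129461591-129472785, minus strand), was at 58.0, 34.6, 27.9, 25.5 and 2.92 CPM with vehicle. GW2580 libraries held 36.8, 38.7, 37.7, 9.52 and 12.9 CPM. The 52 counts of Vehicle 5 were the fewest of all, and the highest level, in Vehicle 1, came with the highest sum of monocyte and granulocyte markers, 27558 CPM, cells that also express Clec7a. Clec7a had a log2 fold change of −0.13 (SE 0.59, edgeR's quasi-likelihood test, adjusted p = 0.932, exact permutation p = 0.889), and of −0.35 with 8 libraries (SE 0.40, exact permutation p = 0.571). The gene Gm45969 lies within its span on the opposite strand, but their exons share no base.

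Cst7, cystatin F, an inhibitor of lysosomal cysteine proteases (chr2:150570415-150578944, plus strand), was the member called. Its level was 34.0, 29.2, 31.2, 28.4 and 7.98 CPM in the vehicle libraries. Levels in the GW2580 libraries were 8.11, 21.1, 13.9, 3.31 and 15.3 CPM. Every GW2580 library lay below vehicle 1 to 4, and Vehicle 5 lay among the GW2580 libraries. Cst7 thus had a log2 fold change of −1.08 (SE 0.48, edgeR's quasi-likelihood test, p = 0.0392), a level 2.12-fold lower, which did not pass the Benjamini-Hochberg adjustment (adjusted p = 0.318), and the exact permutation test gave p = 0.103. The unadjusted p rose over 0.05 when any 1 of Vehicle 1, 2, 3 or 4 or GW2580 1, 3 or 4 was left out, at log2 fold changes of −1.13 to −0.83.

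With 8 libraries the level of Cst7 was 28.4 to 34.0 CPM with vehicle and 3.31 to 21.1 with GW2580, with no overlap. The log2 fold change was then −1.50 (SE 0.42, edgeR's quasi-likelihood test, adjusted p = 0.0263, exact permutation p = 0.0286, the smallest possible). Vehicle 5 and GW2580 5 were left out by a choice made on these same data, so the lack of overlap and these p-values are not independent support for a change. NK cells and neutrophils also express Cst7. The NK and T cell list (9 of 10 tested, none at 0) summed to 47.7–119 CPM in those vehicle libraries and to 19.9–67.1 in those GW2580 libraries. The monocyte and granulocyte list summed to 2671–27558 and 646–11921 CPM in the same libraries. Of its 10 genes 4 were called lower, 1 of them at an adjusted p under 0.05, and the median log2 fold change was −1.71. Of the 9 NK and T cell genes tested 3 were called lower, 1 of them at an adjusted p under 0.05, with a median of −0.24. Among all genes 15.2% were called lower, and 11.1% were lower at an adjusted p under 0.05. The part of either list in the level of Cst7 was not tested. In Vehicle 5, where Cst7 was at its vehicle minimum, the NK and T cell list was at its highest, 290.1 CPM, and the monocyte and granulocyte list at its lowest, 526 CPM.

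Gpnmb, a transmembrane glycoprotein of lysosomes in lipid-laden macrophages (chr6:49036518-49058182, plus strand), was at 11.5, 6.44, 6.27, 7.64 and 7.86 CPM with vehicle. It was at 4.52, 4.55, 7.33, 21.3 and 7.31 CPM with GW2580. GW2580 4 alone stood above all others, and the groups overlapped. Its log2 fold change was 0.18 (SE 0.42, edgeR's quasi-likelihood test, adjusted p = 0.863, exact permutation p = 0.960), and 0.15 with 8 libraries (SE 0.45, exact permutation p = 0.971).

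**Figure D2:**
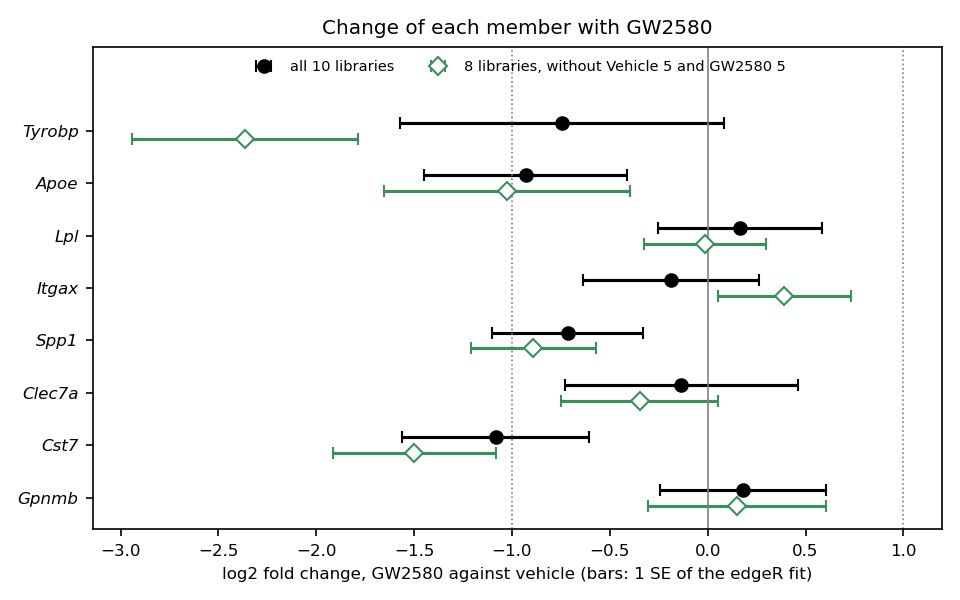
Log2 fold change of GW2580 against vehicle for each member (horizontal axis, bars 1 SE of the edgeR fit), with all 10 libraries (filled circles) and with 8 (open diamonds), and dotted lines at a fold change of 2. Tyrobp moves from −0.75 to −2.37 and Cst7 from −1.08 to −1.50 when Vehicle 5 and GW2580 5 are left out, while Lpl, Clec7a and Gpnmb stay within 1 SE of 0 in both.

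In the 8 libraries 2 members were called, Tyrobp and Cst7, both lower, at the fold and p rule and also at an adjusted p under 0.05. The background had grown as well: 22.3% of 27215 genes were called, 15.2% lower and 7.08% higher, 34.7% had an unadjusted p under 0.05 and 17.8% an adjusted one, 11.1% with GW2580 lower. The groups did not overlap, with GW2580 lower, for those 2 members and for 11.7% of all genes. The median log2 fold change of the members was −0.45 with 10 libraries and −0.62 with 8, against −0.03 and −0.04 for all genes. In each, 6 of the 8 members were lower, where 51.6% and 51.8% of all genes were.

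The likeness of other genes to each member was described by the correlation of log2 CPM over the 10 libraries, among 7580 genes above 20 CPM. Tyrobp ran closest with Tmsb4x, an actin-binding peptide (r = 0.998, rho = 0.988), with Fcer1g, the sister adaptor of Fc receptors (r = 0.997, rho = 1.00), and with Gngt2, a G protein subunit (r = 0.994). Their r was 0.989 to 0.996 without Vehicle 5 and GW2580 4, where Tyrobp was farthest from its median. Cst7 ran closest with the actin regulator Arpc3 (r = 0.991), the ferritin light chain Ftl1 (r = 0.986) and the histone H2az1 (r = 0.985). Exons of these 6 genes were 658 to 1349 bases in all, against 575 for Tyrobp and 986 for Cst7. With the trend on gene length removed, the log2 fold changes of Tyrobp and Cst7 were −0.84 and −1.03. The part of gene length in the likeness was not tested. Such genes share libraries, depth and scaling with the members, and Tmsb4x and Ftl1 have near-identical copies elsewhere in the genome, so their counts are uncertain.

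Lpl and Clec7a ran together, each among the 3 genes nearest to the other (r = 0.967, rho = 0.915, r = 0.892 without Vehicle 5 and GW2580 5), together with Igsf6 (r = 0.978 and 0.953). Spp1 was nearest to the Fc receptor Fcgr4 (r = 0.935), Itgax to Lrp6 (r = 0.976) and Apoe to Bccip (r = 0.963). Gpnmb had no near companion. Its best match, Igf1r, reached r = 0.637 and 0.169 without GW2580 1 and 4.

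**Figure D3:**
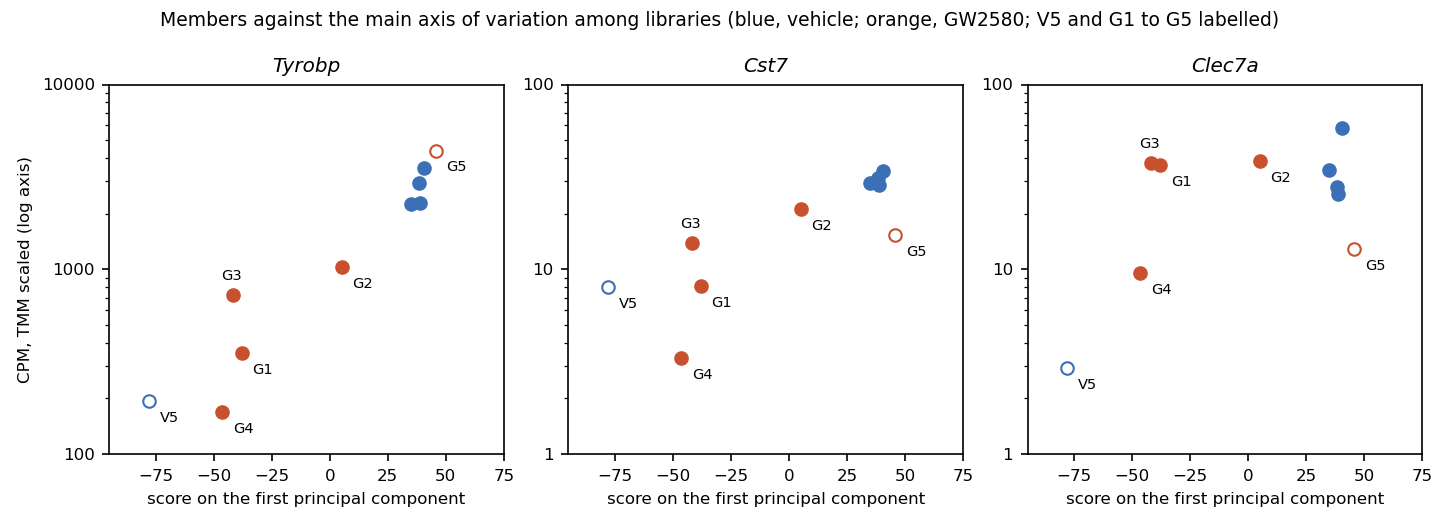
Level of Tyrobp, Cst7 and Clec7a (CPM, log axis) against the score of each library on the first principal component of 7580 genes, with vehicle in blue, GW2580 in orange and open circles for Vehicle 5 (V5) and GW2580 5 (G5). Tyrobp is at 2243 to 4387 CPM in the libraries that score 35.0 to 45.8 and at 169 to 1024 CPM in those that score −77.9 to 5.20, and the unlabelled vehicle libraries 1 to 4 sit together at 35.0 to 40.5.

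Downstream of the receptor, 20 of 21 genes of TREM2-TYROBP signalling were tested. Of these, 18 had a positive fold change, with a list median of 0.48, against 13750 of all 28419 genes. Called were 2, both higher with GW2580, where 4.01% of all genes were called higher and 10.7% in either direction. The 2 were Adam10, a sheddase that cuts TREM2 from the surface (65.0 ± 10.7 to 176 ± 106 CPM, log2 fold change 1.44, SE 0.42), and Plcg2, the phospholipase downstream of SYK (81.3 ± 20.6 to 175 ± 97.2 CPM, 1.10, SE 0.40). Neither passed the adjustment (edgeR's quasi-likelihood test, adjusted p = 0.280 for both). The kinase Lyn was at 0.89 (adjusted p = 0.318), the phosphatase Inpp5d at 0.78 (adjusted p = 0.368) and the exchange factor Vav1 at 0.90 (adjusted p = 0.361). With 8 libraries 4 were called higher and 1 lower (22.3% of all genes in either direction), and those 5 and Malt1 had an adjusted p under 0.05 (17.8% of all genes). The gene called lower was Hcst (DAP10), the sister adaptor next to Tyrobp on chromosome 7, named after its values were seen, at −2.20 (SE 0.51, adjusted p = 0.0136 by edgeR's quasi-likelihood test), against −0.38 with 10 libraries. Scaled by library size alone, the median of all genes moved from −0.03 to 0.23 and 5 signalling genes were called. The signalling list summed to 1884–2536 CPM with vehicle and 2155–6216 with GW2580. Its highest sum was in GW2580 3, the library with the smallest TMM factor (0.691), and the next in GW2580 1, at 3429 CPM.

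Of the other 30 genes of the DAM signature, 29 were tested, 3 were called, all lower, and 22 had a negative fold change (median −0.40). Of all genes, 10.7% were called, 6.7% lower, and 51.6% had a negative fold change. The 30th, H2-D1, was listed at 0 in all libraries and has exons on 2 sequences. The genes called were Fabp5, a fatty acid carrier (37.3 ± 50.8 to 8.01 ± 5.22 CPM, log2 fold change −2.22, SE 0.72), Fth1, the ferritin heavy chain (11010 ± 7467 to 3254 ± 1723 CPM, −1.76, SE 0.60), which also has near-identical copies in the genome, and Cd63, a tetraspanin of lysosomes (913 ± 261 to 360 ± 221 CPM, −1.34, SE 0.50). For these genes edgeR's quasi-likelihood test gave an adjusted p of 0.280. Of the most abundant lysosomal proteases of the signature, Ctsd was at 0.44 (adjusted p = 0.695) and Ctsb at 0.28 (adjusted p = 0.787). With 8 libraries 9 were called, all lower, against 15.2% of all genes called lower. Of these 9, 8 had an adjusted p under 0.05, Lgals3 did not, and Ank, at a positive fold change under 2, was the other gene that did.

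Of the 18 homeostatic genes, those that DAM lose in disease models, 1 was called, Cx3cr1, the fractalkine receptor (2543 ± 405 to 5594 ± 3195 CPM, log2 fold change 1.14, SE 0.46, edgeR's quasi-likelihood test, adjusted p = 0.298). This count is below the 10.7% called among all genes. The median was 0.52 and 15 were positive, against 13750 of all 28419 genes. Txnip (0.95, adjusted p = 0.317) and Tgfbr1 (0.93, adjusted p = 0.308) were under a fold of 2. Among the most abundant, Cst3 was at −0.94 (adjusted p = 0.571) and Selplg at 0.50 (adjusted p = 0.634). With 8 libraries 3 were called higher and 1 lower, the latter being Cst3 (−1.91, adjusted p = 0.130), against 22.3% of all genes called. In this edgeR fit 0 homeostatic genes passed an adjusted p of 0.05, with 4 at an unadjusted p under 0.05.

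Of 16 partners of Apoe and Lpl in lipid handling, 15 were tested and 2 were called, both lower, where 6.7% of all genes were called lower and 10.7% in either direction. Clu, an apolipoprotein also made by astrocytes and the choroid plexus, went from 868 ± 1542 to 87.4 ± 35.6 CPM (log2 fold change −3.31, SE 1.16, edgeR's quasi-likelihood test, adjusted p = 0.280). Clu was at 3587 CPM in Vehicle 5, 639 in Vehicle 2 and 30.5 to 119 in the others. Without Vehicle 5 alone its log2 fold change was −1.10 (adjusted p = 0.382), and with 8 libraries −1.05 (adjusted p = 0.366). Nr1h3, the sterol sensor LXRα that drives Apoe, was at −1.36 (SE 0.49, adjusted p = 0.280) and at −0.74 with 8 libraries (adjusted p = 0.164). Apoc1, next to Apoe on the chromosome, was at 3.43 ± 1.71 and 1.30 ± 1.71 CPM (−1.42, adjusted p = 0.341) and was the gene called with 8 libraries (−2.83, adjusted p = 0.00723). The receptor Lrp1 was at −0.080 (adjusted p = 0.956) and the sensor Nr1h2 at 0.080 (adjusted p = 0.946). Angptl4 was listed at 0 and has exons on 2 sequences.

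**Figure D4:**
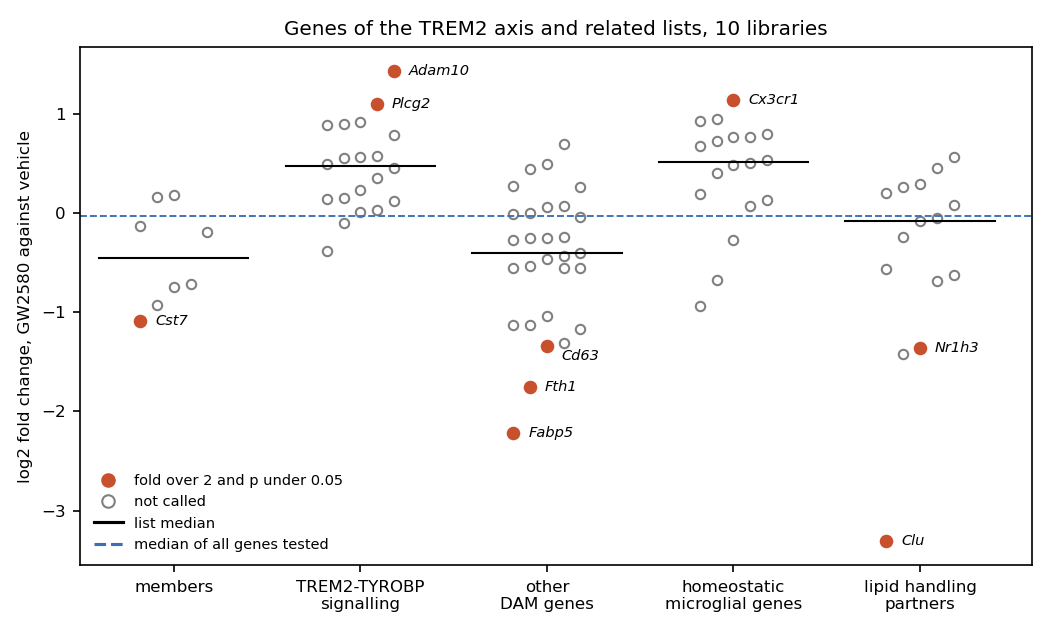
Log2 fold change of GW2580 against vehicle (vertical axis, 10 libraries) for each tested gene of 5 lists, with called genes filled and named, the median of each list as a black line and that of all genes (−0.03) as a dashed line. The members (median −0.45) and other DAM genes (−0.40) have medians below 0, the signalling (0.48) and homeostatic genes (0.52) above 0, and most genes are not called.

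None of the members was called between the 6 female and 4 male libraries with treatment in the model (edgeR's quasi-likelihood test, 0 at an unadjusted p under 0.05), against a background of 1.62%, with 2.02% of genes at an unadjusted and 0.0915% at an adjusted p under 0.05. The nearest was Clec7a, at 42.0 ± 10.8 CPM in males and 19.4 ± 13.1 in females (log2 fold change of female against male −1.11, SE 0.54, adjusted p = 1.00). The effect of GW2580 differed between the sexes for 1 member at an unadjusted p under 0.05, Gpnmb, against 2.52% of all genes. In males it was 6.44 and 11.5 CPM with vehicle and 4.52 and 4.55 with GW2580, and in females 6.27 to 7.86 with vehicle and 7.31 to 21.3 with GW2580. The interaction was 1.71 on the log2 scale (SE 0.77, edgeR's quasi-likelihood test, adjusted p = 1.00).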

How the data were processed

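For 10 SMART-Seq v4 PLUS libraries the authors trimmed read pairs, used STAR for alignment to GRCm38, and with featureCounts counted uniquely aligned fragments per RefSeq gene. They deposited these counts without normalization, with the exon length of each gene and, per library, the number of fragments in each counting class. The header names featureCounts 1.6.3, another release than the study's methods give, and counting without strand, so overlapping antisense genes cannot be separated. Assigned fragments, 24.3% to 43.3% of records, alone entered library sizes and tests. The share was lowest in GW2580 4 (24.3%) and GW2580 1 (25.9%), with 60.1% and 56.1% of records outside exons. Of the GW2580 libraries, these were the lowest for Tyrobp, Apoe and Cst7. The highest share was in Vehicle 5 (43.3%), the vehicle library lowest for Tyrobp and Cst7. The part of these shares in the levels of the members was not tested. The reads carry no molecular identifiers, so counting intervals and floors cover counting error only, and each test used the spread between libraries. The labels give 1 sample per library and not which animal it came from. Each group holds both sexes and so more than 1 mouse. Where samples of the same sex were not separate mice, the p-values measure technical spread in part.

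Genes over 1 CPM in 3 or more libraries were scaled with TMM factors (0.691 to 1.61) and tested with edgeR's quasi-likelihood test (edgeR 4.0.16, R 4.3.3), with treatment as the only term and Benjamini-Hochberg adjustment over all 28419 genes. The SE was the log2 fold change over the square root of F. Calls needed a fold over 2 and an unadjusted p under 0.05. Single genes were also tested by the two-sided exact permutation test on log2 CPM (prior count of 2) over the 252 ways to choose 5 of 10 libraries, whose smallest p is 0.00794, or the 70 ways to choose 4 of 8. limma 3.58.1 and DESeq2 1.42.0 were alternatives. Scripts were tested on simulated data. Figures and other values were made with matplotlib 3.10.9, scipy 1.17.1, numpy 2.4.6 and pandas 2.3.3 (Python 3.11.15).

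Symbols and coordinates came from RefSeq tables of GRCm38.p6, which hold 46029 of the 46152 genes. The members, lists and tests were chosen with earlier results of these data known. Named were the members, of each list up to 3 genes of highest CPM and 3 of smallest p, and for each member its 3 nearest genes by correlation. Tmem119, Hcst, the TREM cluster and genes listed at 0 were named outside this rule, after their values were seen. 1 gene that this rule names is not reported here.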

Additional observations from a re-analysis of the deposited data

Results flagged for a closer look

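Dixon's test was run on CPM without a log scale, in 16 groups of 5 libraries (8 members in each treatment group). In 4 groups it set a library apart from the others at the 95% level. Chance gives about 1 in 20 groups only for normally distributed values, which CPM need not be. On log2 CPM the test was not run, and there the libraries set apart can differ. The 4 were Tyrobp in GW2580 5 (4387 CPM, against 169 to 1024 in the other GW2580 libraries), Itgax in Vehicle 5 (23.6 CPM, against 4.08 to 8.12), Cst7 in Vehicle 5 (7.98 CPM, against 28.4 to 34.0) and Gpnmb in GW2580 4 (21.3 CPM, against 4.52 to 7.33). The members are not independent of each other, since they come from the same libraries. The effect of GW2580 on Gpnmb differed between the sexes by 1.71 on the log2 scale (edgeR's quasi-likelihood test, unadjusted p = 0.0459), with GW2580 4, a female library, the highest, and the difference failed the adjustment for all genes (adjusted p = 1.00).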

How the results depend on the processing

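The call of Cst7 is a single call among 8 members. The count of members called was 0 with library size alone, with the replicate block and with an adjusted p under 0.05, and 2 with limma-voom, without Vehicle 2 and Vehicle 5, without Vehicle 5 and GW2580 5, and, chosen after seeing the data, in the last with an adjusted p under 0.05. Leaving out 1 library at a time gave 0 to 2 members called, 1 to 5 signalling genes (5 without Vehicle 5 or GW2580 5, 1 without Vehicle 2 or GW2580 3), 2 to 8 other DAM genes (8 without Vehicle 5 or GW2580 5, 5 without GW2580 2), 0 to 2 homeostatic genes (0 without Vehicle 2 or GW2580 3, 2 without GW2580 2, 4 or 5) and 1 to 3 lipid handling partners (1 without Vehicle 5).

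Other DAM genes called were 5 with DESeq2 size factors or no filter, 7 with the DESeq2 test, 6 with a glial covariate (a mean over neuron, astrocyte and oligodendrocyte markers) or without Vehicle 2 and Vehicle 5, 9 without Vehicle 5 and GW2580 5 by either rule, and 0 at an adjusted p. Homeostatic genes called were 3 with library size alone, 4 without Vehicle 5 and GW2580 5 (0 at an adjusted p), and 0 with limma-voom, no filter, the replicate block, the glial covariate, without Vehicle 2 and Vehicle 5 or at an adjusted p. Signalling genes called were 5 with library size alone, 1 with limma-voom or the replicate block, 5 without Vehicle 5 and GW2580 5 (6 at an adjusted p) and 0 at an adjusted p. Lipid handling partners called were 1 with limma-voom, without Vehicle 2 and Vehicle 5 and without Vehicle 5 and GW2580 5 by either rule, and 0 with the glial covariate or at an adjusted p. By sex, 1 member was called with library size alone, and the interaction called 0 with library size alone, no filter or the length trend removed. At the fold and p rule for treatment, 10.7% of all genes were called in the main fit and 22.3% without Vehicle 5 and GW2580 5. For the other settings this share was not counted, so their counts cannot be set beside a background. Why the counts moved was not tested.

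Members near 0 changed sign. Lpl was at −0.12 without Vehicle 2 and Vehicle 5 and −0.0140 without Vehicle 5 and GW2580 5. Itgax was at 0.0600 with library size alone, 0.0105 with the replicate block, 0.21 with the glial covariate, 0.49 without Vehicle 2 and Vehicle 5 and 0.39 without Vehicle 5 and GW2580 5. Clec7a was at 0.12 with limma-voom and 0.0948 with the replicate block, and Gpnmb at −0.0392 and −0.0545. Leaving out 1 library at a time moved Lpl from −0.0639 to 0.38, Itgax from −0.45 to 0.40, Clec7a from −0.43 to 0.24, Gpnmb from −0.42 to 0.36, Tyrobp from −2.07 to −0.46, Cst7 from −1.36 to −0.83, Apoe from −1.20 to −0.69 and Spp1 from −0.96 to −0.49. Tyrobp, Apoe, Spp1 and Cst7 were lower with GW2580 under each of the 21 alternatives run for single genes.

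Replicate numbers showed no clear pairing of the samples, though so few pairs cannot exclude a weak one. Deviations of same-numbered libraries correlated at −0.0548, 0.389, 0.0898, −0.440 and −0.566, and 2 of 10 libraries correlated best with their own number. With the number as a replicate block, Cst7 was at −1.18 and, with an unadjusted p over 0.05, no longer called.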
